A study of Mus musculus with 8 samples.

Results

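The genes examined encode the enzymes, readers and motors that act on chromatin, chosen by name from the platform annotation. They were all probe sets carrying exactly 1 gene symbol that begins with Kdm, Kmt, Setd, Smarc, Hdac, Cbx, Ezh, Suz12, Dnmt, Baz or Ino80, that begins with Chd, Brd, Phf or Kat and a digit or with Arid or Ing and a digit from 1 to 5, or that is Tet1, Tet2 or Tet3. The rule reads gene symbols and gave 183 of the 22511 probe sets on the array and 93 of the 9607 genes named there by a single symbol. A name is not a function, and a few of them, such as Phf24 or the pseudogene Phf8-ps, belong by symbol alone. In all, 127 of the 183 probe sets (69.4%), from 78 genes, were brighter than the median of their array in 2 or more of the 8 samples and were tested, against 58.7% of all probe sets. The other 56 were too dim, and 15 genes, among them Brd7, Chd8, Kat6b, Kdm6a, Smarcb1, Smarce1 and Tet3, had no tested probe set. A probe set that passed only through its brighter group had to differ, so counts over the tested probe sets are descriptions.

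RNA was taken from the brain of T9H/+ mice, heterozygous for a reciprocal translocation between chromosomes 7 and 15, with 1 Affymetrix 430B array for each of 8 samples. Every sample carried an unbalanced inheritance of both chromosomes: a maternal duplication of the proximal part of chromosome 7 with a paternal duplication of the proximal part of chromosome 15 (called maternal-7 here), or the reverse (paternal-7). Each of these was measured in 4 contexts, namely the cortex and the cerebellum of neonates and the whole brain of embryos 15.5 or 13.5 days post coitum (dpc). No wild-type sample was included, the breakpoints are not given in the sources used here, and the labels do not say whether a sample was 1 animal or a pool. Since no context was replicated, the error of each comparison came from the departure of the 8 arrays from an additive model of context and duplication with 3 residual degrees of freedom.

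The genes work in recognisable groups. DNA methyltransferases and Tet oxidases write and remove methylcytosine, SET-domain enzymes and Kdm proteins add and remove methyl groups on histone lysines, and Kat and Hdac enzymes add and remove acetyl groups. BAF, ISWI, CHD and INO80 complexes use ATP to slide or evict nucleosomes, and in the developing brain the BAF complex is known to exchange subunits as progenitors become neurons. Polycomb complexes keep genes silent through histone H3 lysine 27 methylation, and imprinted genes are known to depend on DNA methylation for their expression from 1 parental copy.

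Promoters of the genes had a higher median count of CpG dinucleotides than those of all genes in a promoter table. That table was not limited to genes on the array or tested here. Of the 93 genes, 70 matched an entry of RefSeq promoter sequences (GRCm38.p6), each of 300 bases from 250 before to 50 after an annotated start. Only the first start listed for a gene was used, and other starts were not examined. The count of CpG, searched as the letters CG, which read the same on both strands, had a median of 25.5 in these 70 and of 7 in all 27025 genes of the table, and 42 of the 70 lay above the 75th percentile of all genes, 21. It ranged from 0 to 65, and the median was 37.5 for the 6 matched genes with a probe set that rose between embryonic and neonatal brain and 30 for the 11 with one that fell. The sequences of a gene that rose (Chd5, chr4:152338401-152338700, plus strand, 32 CpG), a gene that fell on both of its tested probe sets (Hdac2, chr10:36974294-36974593, plus strand, 36 CpG) and a gene that fell with a CpG-poor promoter (Phf11d, chr14:59365441-59365740, minus strand, 3 CpG) are printed from 5′ to 3′ with each CG in capitals. They are shown because CpG-rich promoters occurred both in a gene that rose and in one that fell, and a CpG-poor one in another that fell. A CpG-poor promoter also occurred in a gene that rose, Phf24 with 4 CpG, whose sequence is not printed.
Chd5: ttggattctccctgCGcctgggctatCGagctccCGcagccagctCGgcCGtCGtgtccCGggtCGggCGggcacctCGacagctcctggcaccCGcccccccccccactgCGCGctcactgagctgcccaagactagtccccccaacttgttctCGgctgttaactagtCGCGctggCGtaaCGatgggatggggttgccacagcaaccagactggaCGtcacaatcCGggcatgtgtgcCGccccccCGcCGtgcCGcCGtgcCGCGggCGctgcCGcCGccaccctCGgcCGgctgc
Hdac2: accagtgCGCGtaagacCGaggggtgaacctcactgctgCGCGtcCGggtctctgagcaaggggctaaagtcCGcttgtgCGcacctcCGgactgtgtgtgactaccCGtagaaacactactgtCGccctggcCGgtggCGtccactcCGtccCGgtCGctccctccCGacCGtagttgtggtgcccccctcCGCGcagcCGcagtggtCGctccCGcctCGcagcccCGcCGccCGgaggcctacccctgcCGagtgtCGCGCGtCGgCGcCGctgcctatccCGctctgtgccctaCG
Phf11d: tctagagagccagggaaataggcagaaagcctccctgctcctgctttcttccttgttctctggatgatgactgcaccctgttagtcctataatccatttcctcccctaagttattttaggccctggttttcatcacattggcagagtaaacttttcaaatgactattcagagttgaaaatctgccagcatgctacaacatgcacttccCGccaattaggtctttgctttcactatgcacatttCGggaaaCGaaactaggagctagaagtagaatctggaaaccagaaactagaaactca

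The tissue labels were checked with marker genes. Neurod2 and Bcl11b, transcription factors of cortical neurons, were higher in neonatal cortex than in cerebellum by 1.64 and 1.91 on the log2 scale, and Tfap2b, a cerebellar transcription factor, was lower by 4.10 (log2 difference -4.10). These were all that passed the test among 5 cortex and 4 cerebellum markers measured. All 5 cortex markers were above 0, and of the cerebellum markers the transcription factor Zic1 was at 0.05 and the Purkinje cell protein Calb1 at -0.42 (adjusted p = 0.994 and 0.941, limma). The mean signal between the 2nd and 98th percentiles was 499.9 on each array, and array medians lay between 229.8 and 285.7. Within a context the pair of arrays had a correlation of log2 signals of 0.967 (cortex), 0.965 (cerebellum), 0.922 (15.5 dpc) or 0.933 (13.5 dpc). These correlations took in all 22511 probe sets, tested or not. Markers of microglia and blood had 0 tested genes of 11 listed.

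Between embryonic and neonatal brain, some chromatin genes rose and others fell, and which direction held more calls depended on the scaling of the arrays. Of the 127 tested, 11 probe sets of 10 genes rose and 17 probe sets of 14 genes fell in neonatal tissue (limma, adjusted p under 0.05 over all 13221 tested probe sets). These are 8.66% and 13.4% of the members, beside 14.3% and 16.4% of all tested probe sets. The median log2 difference was -0.12 for the members and -0.16 for all. Above 0 were 54 of the 127 members and 5042 of all 13221 tested probe sets. The 4 neonatal arrays all lay above the 4 embryonic ones in 12 members (9.45%, all probe sets 11.8%) and all below in 18 (14.2%, all probe sets 16.5%). With each array centred on its median, 19 rose and 7 fell (all probe sets 2398 and 1058, median 0.02), and with quantile normalization 13 rose and 15 fell. The 28 called probe sets kept their direction under every setting tried in which they were tested.

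This comparison sets 2 dissected regions against whole brain, so age and region cannot be told apart, and in bulk RNA fewer cells of a type cannot be told apart from less RNA per cell. Proliferation markers fell in 5 of 5 tested genes of 21 listed, and their summed signal was 1345 to 2051 on the neonatal and 3677 to 9550 on the embryonic arrays. Among them were Bub1b, a mitotic checkpoint kinase, at -2.95 ± 0.15 and the replicative helicase subunit Mcm5 at -2.07 ± 0.19. Neuron markers rose in 6 of 7 tested genes of 19 listed, with sums of 58601 to 66100 against 16356 to 42844. Astrocyte markers rose in 3 of 3 of 10 listed, with sums of 10643 to 12459 against 3908 to 7040, and progenitor markers in 2 of 2 of 15 listed, with sums that overlapped. Oligodendrocyte, vessel and choroid plexus markers had 0 of 1, 0 of 1 and 0 of 3 tested genes called. Of 2 tested mesenchyme markers Prrx1 fell by 1.83 on the log2 scale. The part of these shifts in cell makeup in the members' differences was not tested.

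**Figure D1:**
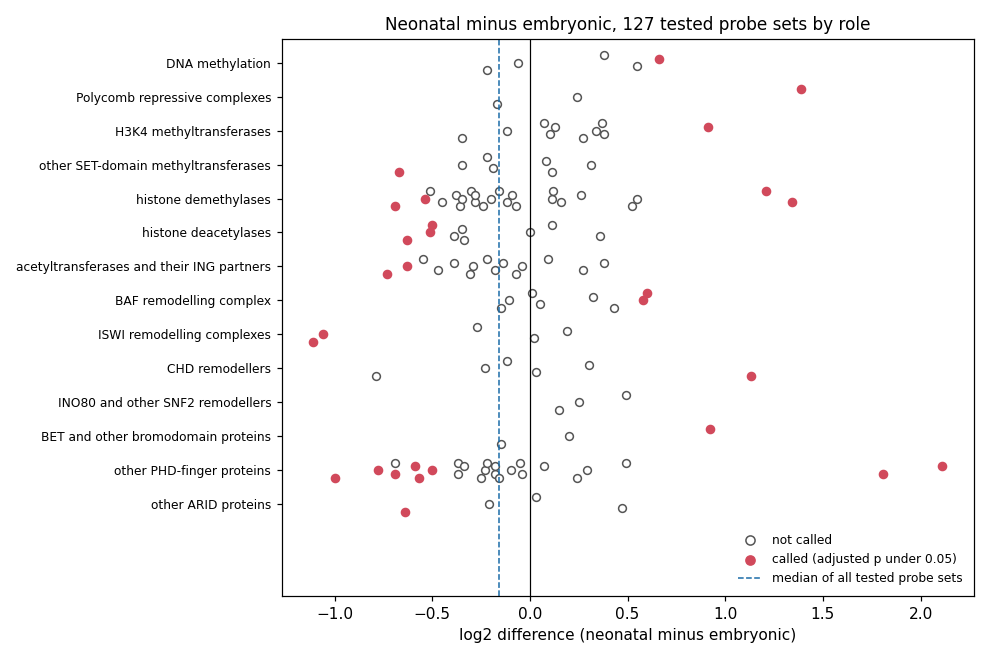
Log2 difference between neonatal and embryonic arrays (x axis) for each of the 127 tested probe sets, in rows by role; filled points were called by limma at an adjusted p under 0.05, open points were not, and the dashed line is the median of all tested probe sets at -0.16. Called points of the acetyltransferases, deacetylases and ISWI subunits lie left of 0, those of the BAF complex right of 0, and those of the demethylases and PHD-finger proteins on both sides.

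Among genes of DNA methylation, 1 of 5 tested probe sets rose and 0 fell. It belonged to Tet2, which oxidises methylcytosine as a step in its removal. Its signals, in each context with maternal-7 first, were 774 and 578 in cortex, 554 and 368 in cerebellum, 511 and 253 at 15.5 dpc, and 370 and 234 at 13.5 dpc. The maternal-7 array was the higher in each context, and the ranges of both stages overlapped. The log2 difference was 0.66 ± 0.14 (SE; adjusted p = 0.0147, limma), while a second Tet2 probe set gave -0.06 ± 0.16. Both Tet1 probe sets (0.55 ± 0.43 and 0.38 ± 0.16) and the probe set of the maintenance methyltransferase Dnmt1 (-0.22 ± 0.15) were not called.

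In the Polycomb group 1 of 3 tested probe sets rose, that of Cbx7, a reader of methylated H3 lysine 27 in Polycomb repressive complex 1. Its signals were 441 and 363 in cortex, 525 and 339 in cerebellum, 140 and 111 at 15.5 dpc, and 132 and 103 at 13.5 dpc. All 4 neonatal arrays lay above all embryonic ones, which were below the array median. The probe set was thus tested only through its neonatal arrays, so its call is a description. The log2 difference was 1.39 ± 0.13 (adjusted p = 0.00123, limma), and set against the array median as background the neonatal level was at least 1.52-fold higher. Cbx6, another such reader, had 0.24 ± 0.16 and Ezh1, a Polycomb methyltransferase, -0.17 ± 0.17, and neither was called. No probe set of an HP1 gene (Cbx1, Cbx3 or Cbx5) or of Ezh2 was among the members.

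Genes grouped by symbol as H3K4 methyltransferases had 1 rising probe set of 10 tested and 0 falling. With median centring 5 rose, and with quantile normalization 2 rose and 1 fell. Whether each gene of the group methylates H3K4 was not tested. The rising probe set of the deposited scaling was 1 of 3 for Kmt2e, a SET-domain protein of the Kmt2 family that stands here by symbol alone. It was at 0.91 ± 0.25 (adjusted p = 0.0366, limma), and the others gave 0.38 ± 0.16 and 0.10 ± 0.17. Its 4 neonatal arrays, from 1505 to 2197, lay above the embryonic ones, from 540 to 1316. Among other SET-domain genes, 1 of 7 probe sets fell, that of Setdb2, a member of the family that methylates H3 lysine 9, at -0.67 ± 0.15 (adjusted p = 0.0178, limma), with 648 to 974 in neonatal and 1152 to 1563 in embryonic arrays.

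Histone demethylases went both ways, with 2 of 24 tested probe sets higher and 2 lower (3 and 1 with median centring). Kdm2a, which removes methyl groups from H3 lysine 36 and binds unmethylated CpG, was the only gene called in both directions. One of its 5 tested probe sets had 217 and 267 in cortex, 341 and 324 in cerebellum, 105 and 98.1 at 15.5 dpc, and 51.7 and 59.8 at 13.5 dpc. That is a rise of 1.34 ± 0.13 (adjusted p = 0.00133, limma) with no overlap, but only at least 1.05-fold once the dim embryonic signals are set to the array median. This probe set was tested only through its neonatal arrays, so its call is a description. A second had 295 and 343 in cortex, 376 and 463 in cerebellum, 430 and 584 at 15.5 dpc, and 619 and 625 at 13.5 dpc, a fall of 0.54 (log2 difference -0.54 ± 0.13, adjusted p = 0.0237, limma) with overlapping ranges. The other 3, from -0.51 to -0.09, were not called, so the direction for Kdm2a depends on the probe set.

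Kdm6b, which removes methyl groups from H3 lysine 27, also rose on 1 probe set and not on the others. That probe set had 386 and 199 in cortex, 301 and 229 in cerebellum, 101 and 65.6 at 15.5 dpc, and 55.7 and 122 at 13.5 dpc, so that neonatal and embryonic arrays did not overlap (1.21 ± 0.24, adjusted p = 0.0111, limma). All its embryonic signals were below the array median, as were both paternal-7 neonatal ones. No bound on the fold above 1 could thus be given, and the size of this difference rests on signals taken as background. The probe set was tested only through its maternal-7 neonatal arrays, so its call and the lack of overlap are descriptions. The other Kdm6b probe sets gave -0.24 ± 0.19 and -0.38 ± 0.13. Kdm7a, a demethylase of H3 lysines 9 and 27, fell: its signals were 870 and 778 in cortex, 796 and 681 in cerebellum, 1120 and 1062 at 15.5 dpc, and 1574 and 1466 at 13.5 dpc. Every neonatal array was below every embryonic one (-0.69 ± 0.12, adjusted p = 0.00835, limma), and a second probe set, at -0.45 ± 0.14 and an adjusted p of 0.0502 (limma), missed the threshold.

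The X-linked H3K4 demethylase Kdm5c is of interest because it escapes X inactivation, and the sex of the samples is not given in the labels. Its 4 tested probe sets had log2 differences from 0.11 to 0.55 between the stages and from -0.05 to 0.14 between the duplications, none called. Its X-linked relative Kdm6a had no tested probe set, and the Y-linked Kdm5d was not analysed here.

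Of the histone deacetylases 3 of 9 probe sets fell and 0 rose, while with median centring 0 fell and with quantile normalization 2 did. Both probe sets of Hdac2, a class I deacetylase of the NuRD, Sin3 and CoREST corepressor complexes and the gene whose CpG-rich promoter is printed here, were among them. The brighter had 8435 and 8004 in cortex, 8170 and 7890 in cerebellum, 14270 and 11220 at 15.5 dpc, and 13950 and 11360 at 13.5 dpc. Neonatal arrays lay within a narrow range below all embryonic ones, a log2 difference of -0.63 ± 0.13 (adjusted p = 0.0138, limma). The second probe set gave -0.51 ± 0.12 (adjusted p = 0.0233, limma), also without overlap. Hdac8, an X-linked deacetylase of cohesin, had 241 to 344 in neonatal and 350 to 465 in embryonic arrays (-0.50 ± 0.14, adjusted p = 0.0358, limma). The class IIa genes Hdac4, Hdac5 and Hdac9, whose proteins shuttle between nucleus and cytoplasm, had 0 of 5 probe sets called, with differences from -0.39 to 0.36.

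Acetyltransferases and their ING partners had 2 of 15 probe sets lower and 0 higher (1 lower with median centring). Kat7, which acetylates histones at replication origins and promoters, had signals of 180 and 220 in cortex, 170 and 263 in cerebellum, 226 and 387 at 15.5 dpc, and 405 and 576 at 13.5 dpc. Stages overlapped, since the maternal-7 array at 15.5 dpc was below the paternal-7 cerebellum array, and the log2 difference was -0.73 ± 0.13 (adjusted p = 0.00903, limma). Kat14, a subunit of the ATAC acetyltransferase complex, had 203 to 294 in neonatal and 353 to 516 in embryonic arrays on the called probe set (-0.63 ± 0.14, adjusted p = 0.0175, limma). Its other probe sets, at -0.29 ± 0.13 and -0.31 ± 0.15, were not called.

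The BAF remodelling complex had 2 of 8 probe sets higher and 0 lower (3 higher with median centring). Arid1b, a large DNA-binding subunit, had 2059 and 2126 in cortex, 1817 and 1651 in cerebellum, 1175 and 1281 at 15.5 dpc, and 1369 and 1184 at 13.5 dpc (0.58 ± 0.13, adjusted p = 0.0181, limma). Phf10, a subunit known from neural progenitors, had 726 and 728 in cortex, 642 and 773 in cerebellum, 387 and 363 at 15.5 dpc, and 625 and 468 at 13.5 dpc (0.60 ± 0.15, adjusted p = 0.0247, limma). In both genes each neonatal array exceeded each embryonic one, for Phf10 by a small margin over the maternal-7 array at 13.5 dpc. The scaffold subunits Smarcc2, at 0.43 ± 0.14 with an adjusted p of 0.0608 (limma), and Smarcc1, at -0.11 ± 0.13, and the subunits Arid2 (3 probe sets, 0.01 to 0.32) and Brd9 (-0.15 ± 0.13) were not called.

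Baz1a and Chd5 stood at opposite ends among the remodellers of other families. Baz1a is an accessory subunit of ISWI complexes that space nucleosomes, and both of its probe sets fell. One had 373 and 377 in cortex, 390 and 471 in cerebellum, 757 and 696 at 15.5 dpc, and 1136 and 1258 at 13.5 dpc. Neonatal arrays were lowest, 15.5 dpc arrays intermediate and 13.5 dpc arrays highest, and the difference was -1.11 ± 0.13 (adjusted p = 0.00219, limma). The second gave -1.06 ± 0.14 (adjusted p = 0.00282, limma) in the same order. The remaining ISWI genes Baz1b, Baz2b and Smarca5 were not called (0.19 ± 0.29, 0.02 ± 0.31 and -0.27 ± 0.34).

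Chd5, a remodeller known to be expressed mainly in neurons, ran the other way. Its signals were 3462 and 4019 in cortex, 3829 and 4082 in cerebellum, 2410 and 2703 at 15.5 dpc, and 1315 and 1016 at 13.5 dpc. The neonatal minus embryonic difference was 1.13 ± 0.15 (adjusted p = 0.00302, limma), with no overlap. Chd2, Chd3, Chd7 and Chd9 had 0 of 5 probe sets called. Of the bromodomain genes, Brd8, a subunit of the NuA4 acetyltransferase complex, rose on 1 of its 2 probe sets (0.92 ± 0.25, adjusted p = 0.034, limma), with 339 to 518 in neonatal and 95.1 to 310 in embryonic arrays, and the other gave -0.15 ± 0.13. Brd3 of the BET family was not called (0.20 ± 0.17), nor were the 3 probe sets of Ino80d, an INO80 subunit, and Smarcal1, an annealing helicase.

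Proteins with PHD fingers, which bind histone tails by their lysine modification, had 2 of 25 probe sets higher and 6 lower, or 3 and 2 with median centring and 3 and 4 with quantile normalization. The 2 that rose were both of Phf24, a neuronal protein better known for its interaction with inhibitory G proteins than for chromatin. The larger difference came from signals of 2408 and 2622 in cortex, 2253 and 2195 in cerebellum, 1129 and 1203 at 15.5 dpc, and 171 and 229 at 13.5 dpc. Here the log2 difference was 2.11 ± 0.13 (adjusted p = 0.000574, limma), but it was 0.99 without both 13.5 dpc arrays and 3.24 without both 15.5 dpc arrays. A second probe set gave 1.81 ± 0.23 (adjusted p = 0.00257, limma) and the third, at 0.49 ± 0.17, was not called.

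Those that fell were Phf21b, Phf14 on 2 of 3 probe sets, Phf11d, Phf20l1 on 1 of 3, and Phf7. Phf21b, a relative of the CoREST-associated protein Phf21a, had 557 and 475 in cortex, 412 and 294 in cerebellum, 1112 and 965 at 15.5 dpc, and 1111 and 564 at 13.5 dpc. Neonatal arrays were lower than all embryonic ones, with the paternal-7 array at 13.5 dpc near the cortex level (-1.0 ± 0.17, adjusted p = 0.00621, limma). Phf14 had 1809 to 2626 in neonatal and 2910 to 4486 in embryonic arrays (-0.78 ± 0.13, adjusted p = 0.00656, limma). Phf11d, with the CpG-poor promoter printed here, had 256 to 299 and 323 to 670 (-0.69 ± 0.16, adjusted p = 0.0212, limma). Phf20l1, a reader of methylated lysines, gave -0.59 ± 0.13 (adjusted p = 0.0155, limma) on 1 probe set and -0.05 ± 0.16 and 0.07 ± 0.17 on the others. Phf7, known as a testis-expressed ubiquitin ligase, gave -0.50 ± 0.13 (adjusted p = 0.0308, limma).

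Of the ARID genes outside BAF, Arid5b, a DNA-binding partner of demethylases, was called on 1 of 2 probe sets (-0.64 ± 0.19, adjusted p = 0.041, limma). Its signals were 1237 and 1542 in cortex, 1539 and 1156 in cerebellum, 1544 and 1316 at 15.5 dpc, and 2709 and 3876 at 13.5 dpc. The 13.5 dpc arrays alone were high, and without them the difference was -0.07 with an adjusted p of 0.843 (limma). Of the 29 genes with 2 or more tested probe sets, 2 were called the same way on all of them (Baz1a and Hdac2), 10 on some, Kdm2a in both directions and 16 on none.

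In all, 6 of the 28 called probe sets kept their call under each setting in which they were tested: 2 of Phf24, 2 of Baz1a, Cbx7 and the rising one of Kdm2a. Without both 13.5 dpc arrays, Chd5 was at 0.58, Kdm7a at -0.46, Kat7 at -0.43, Phf11d at -0.41 and Hdac8 at -0.33, none of them called. Tet2 was at 0.40 without both cortex arrays and Phf10 at 0.37 without both 15.5 dpc arrays, also not called, and Brd8 was at 0.60 and still called without the paternal-7 array at 13.5 dpc. The count of rises was 6 without the paternal-7 cortex array or without the paternal-7 cerebellum array, and the count of falls was 5 without the former and 8 to 10 when the maternal-7 cortex, either cerebellum, the paternal-7 15.5 dpc or the paternal-7 13.5 dpc array was left out.

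**Figure D2:**
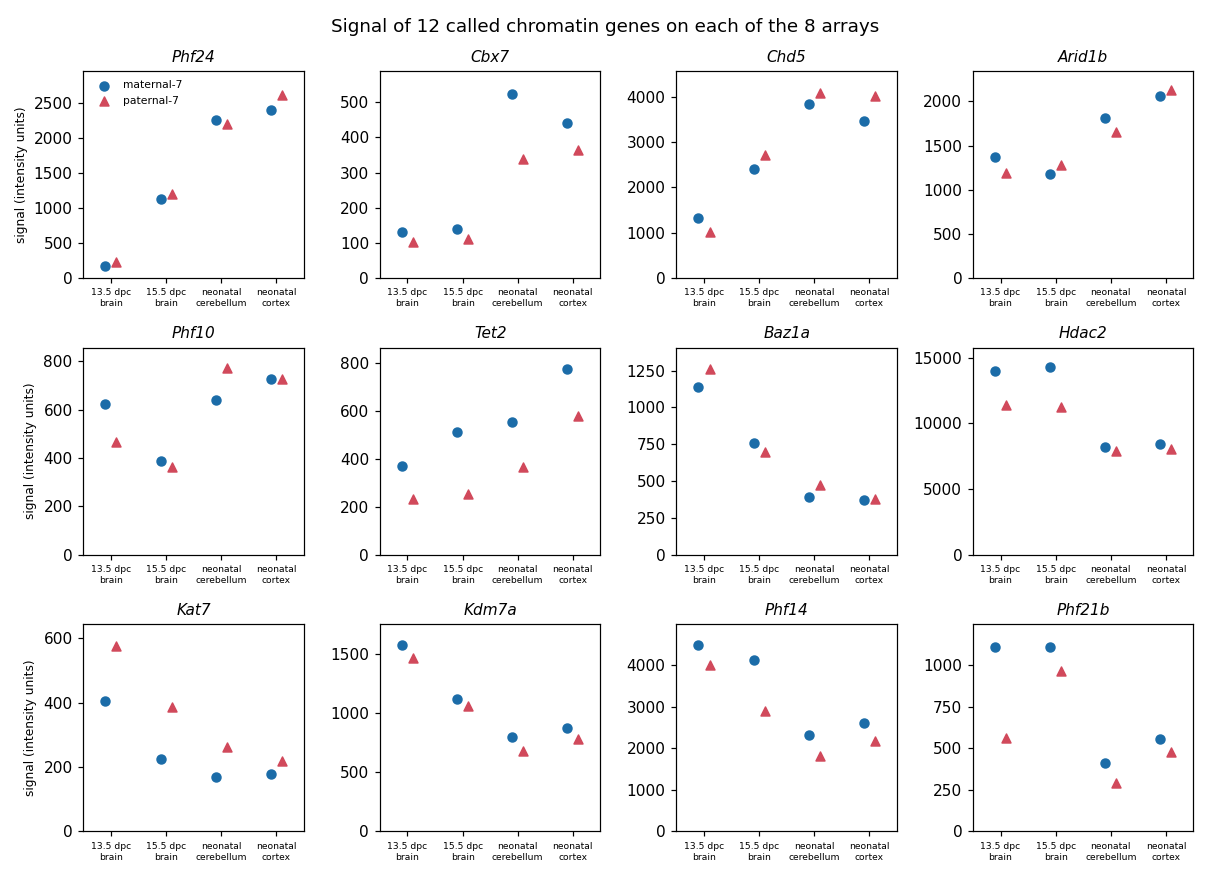
Signal in intensity units (y axis, from 0) on each of the 8 arrays for 1 called probe set of 12 genes, by context (x axis), with circles for maternal-7 and triangles for paternal-7 samples; there are no error bars because each point is 1 array. Chd5 rises from 1016 and 1315 at 13.5 dpc to 4019 and 3462 in neonatal cortex, and Baz1a runs the other way.

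Between 13.5 and 15.5 dpc, 3 members rose and 0 fell (2.36% and 0% of the 127, beside 3.52% and 3.07% of all tested probe sets, limma). At an unadjusted p under 0.05 there were 23 of the 127 members, beside 3046 of all 13221 tested probe sets. Phf24 was higher at 15.5 dpc by 2.25 ± 0.19 (adjusted p = 0.00585, limma), at least 4.26-fold against the array median, since both 13.5 dpc signals were below it. Chd5, at 2410 and 2703 against 1315 and 1016, rose by 1.10 ± 0.21 (adjusted p = 0.034, limma). A probe set of Phf20l1, at 2310 and 1786 against 969 and 819, rose by 1.14 ± 0.23 (adjusted p = 0.0373, limma) and was not the one called between the stages.

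More members were lower than higher at 15.5 dpc without passing the test. Both 15.5 dpc arrays were below both 13.5 dpc arrays in 43 members (33.9%, all probe sets 24.1%) and above them in 19 (15%, all probe sets 22.5%), and the median was -0.10 for the members and -0.02 for all. Arid5b, at -1.15 ± 0.26, had an adjusted p of 0.0531, Setd5, a SET-domain gene, at -0.75 ± 0.18 one of 0.0597, and Kmt2d, an H3K4 methyltransferase of enhancers, at -0.72 ± 0.19 one of 0.0704 (limma). In the same comparison neuron markers rose in 5 of 7 genes and proliferation markers fell in 2 of 5. The mesenchyme marker Prrx1 fell by 2.90 on the log2 scale, with sums of both mesenchyme markers of 502.1 to 546.4 at 15.5 dpc and 2913 to 3130 at 13.5 dpc. One of 2 progenitor markers (Sox1, 1.17), 1 of 3 choroid plexus markers (Kcnj13, 1.03) and 1 of 5 cortex markers (Neurod2, 1.45) rose, and 0 of 3 astrocyte and 0 of 4 cerebellum markers were called. Their part was not tested. The count of 3 was 1 without any 1 of the 4 neonatal arrays or of the 15.5 dpc arrays, and 0 without the paternal-7 array at 13.5 dpc. The range of adjusted p reached 0.0543 for Phf24, 0.173 for Chd5 and 0.186 for Phf20l1 over the settings tried (limma).

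Between neonatal cortex and cerebellum no member passed the test, but most were higher in cortex. Of all tested probe sets 0.197% were called higher and 0.129% lower, against 0 of 127 members in either direction (limma). The smallest adjusted p of a member was 0.274, and 15 members, like 1011 of all probe sets, had an unadjusted p under 0.05. In all, 86 of the 127 members were above 0, beside 6363 of all 13221 tested probe sets. The median was 0.14 for the members and -0.01 for all probe sets. Both cortex arrays lay above both cerebellum arrays in 50 members (39.4%, all probe sets 19.6%) and below them in 15 (11.8%, all probe sets 21.4%). Each region had only 2 arrays, and in simulated data 30% of probe sets with a true log2 difference of 1 were recovered in this comparison.

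The H3K4 methyltransferase group was higher in cortex on 10 of 10 probe sets under each of the 3 scalings, with a median of 0.46. On 8 of them the regions did not overlap. Kmt2e, placed in the group by symbol alone, held 3 of the 10, at 0.12 to 0.36. Kmt2d had 1705 and 1312 in cortex and 1035 and 683 in cerebellum, a difference of 0.79 ± 0.19 (adjusted p = 0.274, limma). Kmt2c, its partner at enhancers, had 1815 and 1539 against 1056 and 993 on 1 probe set (0.68 ± 0.17) and 2755 and 2597 against 1837 and 1722 on the other (0.57 ± 0.18). Kmt2b, a methyltransferase of CpG-rich promoters, had 3948 and 3526 against 2982 and 2008 (0.60 ± 0.22). No regions overlapped in these 4 probe sets. Setd7, which adds a single methyl group, was at 0.52 ± 0.18, and both probe sets of Setd1b, a catalytic subunit of the COMPASS complex, were at 0.41 ± 0.18 and 0.25 ± 0.19.

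BAF subunits were above 0 on 8 of 8 probe sets under each scaling (median 0.27), with 6 of 8 not overlapping, the 3 of Arid2 among them at 0.36, 0.36 and 0.46. Of other genes, Chd3, a NuRD remodeller, had 8344 and 8658 in cortex and 5400 and 5554 in cerebellum (0.63 ± 0.18). Setd2, which trimethylates H3 lysine 36, had 3789 and 3612 against 2033 and 2831 (0.61 ± 0.24). Tet2 was at 0.78 ± 0.23 and 0.51 ± 0.20 on its 2 probe sets, with no overlap on either, and Kdm6b at 0.76 ± 0.27, 0.52 ± 0.18 and 0.07 ± 0.34. These probe sets were higher on both cortex arrays except the last, whose regions overlapped. ISWI subunits were the other way, with 1 of 5 probe sets above 0 and 3 of 5 below without overlap. Phf20l1 was higher on both cortex arrays for all 3 of its probe sets (0.79 ± 0.24, 0.73 ± 0.23 and 0.32 ± 0.18). The cerebellum signals of the first of these and of the first of Kdm6b were below the array median, which put cortex at least 1.30-fold and 1.47-fold higher. None of the probe sets named here was called.

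**Figure D3:**
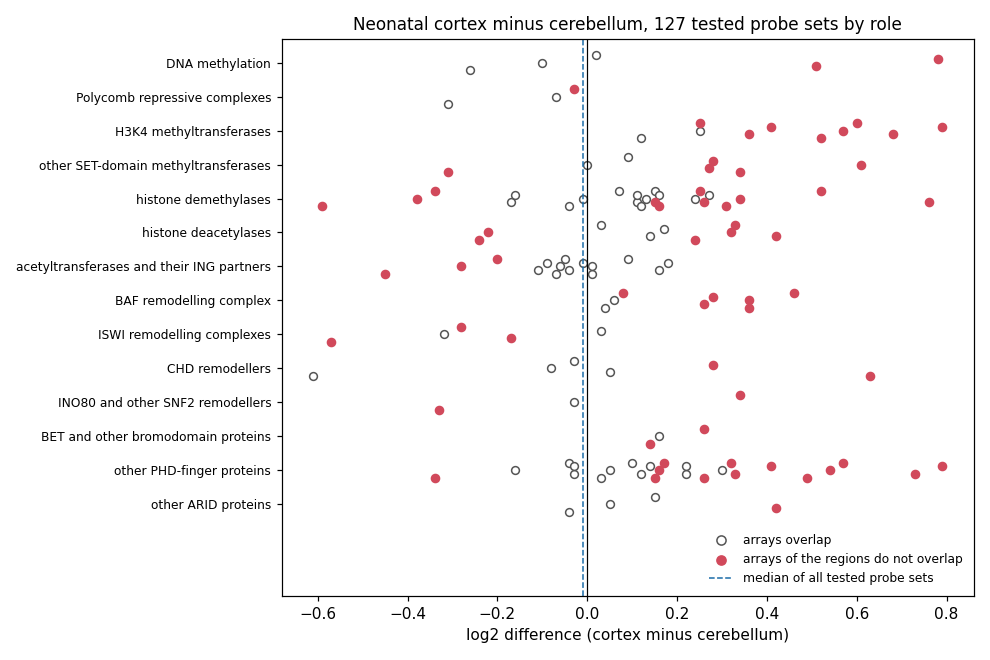
Log2 difference between neonatal cortex and cerebellum (x axis) for each of the 127 tested probe sets, in rows by role; filled points are probe sets whose 2 arrays of one region both lie beyond those of the other, and the dashed line is the median of all tested probe sets at -0.01. No point was called by limma. H3K4 methyltransferase and BAF points all lie right of 0.

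The duplications were compared to see whether the parental origin of proximal chromosomes 7 and 15 changed these genes, and no member was called. Of all tested probe sets 1 (0.00756%) passed (limma). Members ranged from -0.58 to 0.60 for paternal-7 minus maternal-7, the smallest adjusted p was 0.532, and 14 members had an unadjusted p under 0.05, as had 1147 of all. Paternal-7 was higher in 4 of 4 contexts in 7 members (5.51%, all probe sets 9.67%) and lower in 4 of 4 in 17 (13.4%, all probe sets 9.08%). In simulated data 81% of probe sets with a true log2 difference of 1 were recovered in this comparison.

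Of those with 1 sign in 4 contexts, the largest values above 0 were in Kdm5b, Kat7 and Chd9. Kdm5b, an H3K4 demethylase, had maternal-7 and paternal-7 signals of 344 and 549 in cortex, 343 and 427 in cerebellum, 485 and 798 at 15.5 dpc, and 363 and 592 at 13.5 dpc. The paternal-7 array was the higher in each context, by 0.54 ± 0.14 on the log2 scale (adjusted p = 0.532, limma). Kat7 gave 0.46 ± 0.13 and Chd9 0.42 ± 0.14, and Arid4a, Setd5 and Kdm2a, each on 1 of its probe sets, 0.26, 0.26 and 0.21. The Arid4a probe set was below the array median on every maternal-7 array. It was thus tested only through its paternal-7 arrays, so its direction is a description. A second Chd9 probe set was at -0.19 ± 0.19.

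The largest values below 0 were those of Tet2 and Kdm1b. Tet2, whose signals are given above, was lower in paternal-7 by 0.39 to 0.87 on the log2 scale in the 4 contexts, a mean difference of -0.58 ± 0.14 (adjusted p = 0.532, limma), and its other probe set was at -0.07 ± 0.16. Kdm1b, a demethylase known for setting maternal imprints in oocytes, had 967 and 852 in cortex, 837 and 589 in cerebellum, 1191 and 527 at 15.5 dpc, and 661 and 445 at 13.5 dpc. Each paternal-7 array was the lower, with the widest gap at 15.5 dpc (-0.56 ± 0.18, adjusted p = 0.535, limma). Ing5, a reader of methylated H3K4, and Kdm5a, a demethylase of that mark, were at -0.49 ± 0.14 and -0.45 ± 0.14 on 1 of 3 probe sets each, while the others of Ing5 were at 0.43 and 0.19 and those of Kdm5a at -0.03 and -0.04.

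**Figure D4:**
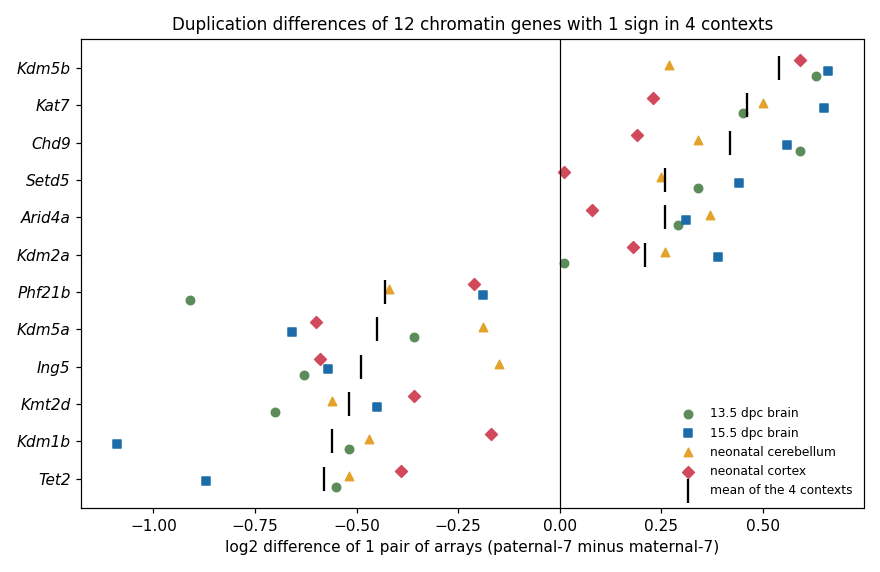
Log2 difference between the paternal-7 and the maternal-7 array of each context (x axis) for 12 probe sets with 1 sign in all 4 contexts, the 6 largest in each direction; symbols mark the contexts and the bar their mean. None was called by limma, and the Arid4a probe set was tested only through its paternal-7 arrays. Kdm5b and Tet2 lie at the ends with means of 0.54 and -0.58.

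Of the probe sets on the 2 chromosomes involved, 12 of 15 were below 0, beside 73 of all 127 members, and none was called. Among all 13221 tested probe sets 6857 were above 0. Arid2 and Phf20l1 each gave 3 of the 15, and several small values changed sign when arrays were left out. On chromosome 7 there were 3 tested probe sets of 3 genes: Kmt2b (-0.16 ± 0.16), Chd2 (-0.07 ± 0.14) and Kat8, an H4 lysine 16 acetyltransferase (-0.20 ± 0.15). On chromosome 15 there were 12 probe sets of 8 genes from -0.52 to 0.20, of which 3 were above 0. Kmt2d had maternal-7 and paternal-7 signals of 1705 and 1312 in cortex, 1035 and 683 in cerebellum, 793 and 564 at 15.5 dpc, and 1468 and 883 at 13.5 dpc. Paternal-7 was the lower in each pair, with a mean difference of -0.52 ± 0.13 (adjusted p = 0.532, limma). Phf21b (-0.43 ± 0.17) and Cbx7 (-0.32 ± 0.13) were also lower in 4 of 4 contexts without being called. Of the others, Hdac10 was at 0.20 ± 0.18, Cbx6 at 0.11 ± 0.16, Brd1, a scaffold of acetyltransferases, at -0.04 ± 0.20, Arid2 at -0.14 to 0.05 and Phf20l1 at -0.40 to -0.03. Whether any of them lies in a duplicated part was not analysed here.

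Single pairs differed at least 2-fold in 0 members in the cortex pair, 1 in the cerebellum pair, 6 in the 15.5 dpc pair and 3 in the 13.5 dpc pair (all tested probe sets 2.7%, 2.87%, 7.92% and 6.66%). Chd7, a remodeller mutated in CHARGE syndrome, singled out after its values were seen, had 451 and 95.9 at 15.5 dpc, 300 and 71.6 at 13.5 dpc, 66.1 and 188 in cerebellum, and 43.3 and 72 in cortex, maternal-7 first. The maternal-7 array was the higher at both embryonic ages. All 4 neonatal signals and both paternal-7 embryonic ones were below the array median, so no direction is read after birth. The probe set was thus tested only through its maternal-7 embryonic arrays, so its embryonic direction is a description. A difference of the duplication effect between stages was called in 0 members and in 0% of all tested probe sets (limma). The smallest adjusted p of a member was 0.44 (limma). At an unadjusted p under 0.05 there were 8 of the 127 members in this comparison, beside 1209 of all 13221 tested probe sets. Only 1% of simulated differences of 1 and 60% of those of 2 on the log2 scale were recovered there.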

How the data were processed

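Affymetrix 430B arrays were hybridised with RNA of 8 samples, 1 for each of 4 contexts and 2 duplications. Linear signal intensities were deposited, which per the submitters' processing notes come from MAS5, its version not given in the sources used here. MAS5 summarises each array alone, so low signals are noisy and dim probe sets are unreliable. Control probe sets (64) were removed. The signals were not normalized further, and 58.5, the median of the arrays' 20th percentiles, was added before taking log2, which makes differences of dim probe sets too small. Probe sets above the array median on at least 2 arrays were tested (13221). Signals under the median of their array were taken as background, and a side wholly below it gave a bound written "at least". Of the probe sets, 14661 had 1 symbol, 245 several and 7605 none. Updating symbols through the RefSeq gene table (GRCm38.p6) gave the same 183.

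Terms for context and duplication were fitted in R 4.3.3 with limma 3.58.1 and empirical Bayes moderation. The Benjamini-Hochberg adjustment took in all tested probe sets (threshold 0.05). A value after ± is the moderated standard error. Differences between stages compare the means of 2 neonatal and 2 embryonic contexts. A second model with separate duplication effects by stage had 2 residual degrees of freedom. The p-values reflect only how these arrays vary, which may be technical, and precision is limited by their number.

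The members, roles, marker lists and partner lists were chosen with earlier results of these data known. Genes named were the called members, then, for the duplications, the 6 largest in each direction with 1 sign in 4 contexts, all tested members on chromosomes 7 and 15, Kdm5c, Kdm6a and Kdm5d, the genes with the smallest p in each role, and the core BAF, Polycomb, HP1, deacetylase and DNA methylation genes. The scripts were tested on simulated data, in which each probe set had the same spread on all arrays. Of log2 differences of 1 and 2, 85% and 98% were recovered between stages, and 28% and 96% between both embryonic ages. Alternatives were median centring, quantile normalization, a pseudocount of 16, a floor of 1, other filters, an intensity trend, the brightest probe set of each gene, no duplication term, and arrays or, added after seeing the data, contexts left out.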

Additional observations from a re-analysis of the deposited data

Results flagged for a closer look

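In 83 groups of 4 values (the neonatal or embryonic arrays of called members, or the 4 pair differences of members named for the duplications), 3 held a value far from the others. Chance gives about 1 in 20 groups. The paternal-7 cerebellum array of Hdac8 had a signal of 344.3, while the other neonatal arrays lay between 241.4 and 249.3. The cerebellum pair of Ing5 differed by -0.15 on the log2 scale, and its other pairs by -0.63 to -0.57. The cerebellum pair of Cbx7 differed by -0.55, and its other pairs by -0.24 and -0.23.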

How the results depend on the processing

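The count of members that rose from embryonic to neonatal brain, 11, was 19 with median centring, 5 with 1 probe set a gene (the brightest), 6 without both cortex arrays, 6 without both 13.5 dpc arrays and 6 to 14 with single arrays left out. The count that fell, 17, was 7 with median centring, 6 without both cortex arrays, 3 without both cerebellum arrays, 3 without both 13.5 dpc arrays and 5 to 14 with single arrays left out. Median centring moves every array by its own amount, which shifted the median of all tested probe sets from -0.16 to 0.02. The cause of the other changes was not tested. Between 13.5 and 15.5 dpc the 3 rises were 1 with a floor of 1, 1 without a filter and 0 to 3 with single arrays left out, and the 0 falls were 2 with quantile normalization, 2 with a stricter filter (above the median on at least 4 arrays), 3 with an intensity trend and 1 without the duplication term. The 22 partner genes called between stages were 14 without a filter, 8 without both cortex arrays, 7 without both cerebellum arrays, 6 without both 13.5 dpc arrays and 4 to 17 with single arrays left out. Counts of 0 between cortex and cerebellum, between the duplications and for the difference of duplication effects were 0 in every setting run. Of members named for the duplications, small uncalled values on chromosomes 7 and 15 changed sign. Without both neonatal pairs the third Arid2 probe set was at -0.05, Cbx6 at -0.15, Chd2 at 0.07 and Kmt2b at 0.04, and without both embryonic pairs Brd1 was at 0.31, Hdac10 at -0.15 and the Phf20l1 probe set called between embryonic ages at 0.16. The Phf20l1 probe set called between stages was at 0.01 with quantile normalization. Leaving out 1 array, and with it its pair, gave ranges of -0.03 to 0.10 for Arid2, -0.20 to 0.18 for Brd1, -0.13 to 0.03 for Chd2 and -0.20 to 0.03 for Phf20l1, on the same probe sets. For the duplications the model itself is paired, since its context term pairs both arrays of a context. Signals near background limit the rising probe sets of Kdm2a, Kdm6b and Cbx7. Their embryonic arrays were below the array median, so they were tested only through neonatal arrays.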

Other observations

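Chromatin genes outside the symbol rule, listed as partners of the same complexes, were measured by 67 of 162 listed genes (brightest tested probe set of each). Between embryonic and neonatal brain 10 rose and 12 fell (limma, adjusted p under 0.05), which is 14.9% and 17.9% beside 14.3% and 16.4% of all tested probe sets, with a median log2 difference of -0.08 beside -0.16 for all tested probe sets. Rest, a repressor of neuronal genes that recruits CoREST and deacetylases, fell by 1.27 on the log2 scale (SE 0.14, adjusted p = 0.00164, limma). It was also lower at 15.5 than at 13.5 dpc (-1.13 ± 0.19, adjusted p = 0.0267, limma). Suv39h2, an H3 lysine 9 methyltransferase, Actr5, an INO80 subunit, and Srcap, a remodeller that places the histone variant H2A.Z, fell by 1.04, 0.94 and 0.73. The other falls were Ttf2 (-0.83), Chrac1 (-0.67), Ehmt1 (-0.66), Trim28 (-0.62), Rbbp5 (-0.61), Pcgf5 (-0.6), Uhrf2 (-0.53) and Smyd3 (-0.46). Prmt8, an arginine methyltransferase of neurons, rose by 0.84 ± 0.15 (adjusted p = 0.00747, limma) and Ss18l1, the neuronal BAF subunit known as CREST, by 0.50 ± 0.13 (adjusted p = 0.031, limma). The other rises were Rcor3 (0.76), Prdm8 (0.67), Nsd2 (0.63), Ncoa3 (0.6), L3mbtl3 (0.56), Bcl7c (0.53), Jade2 (0.49) and Atrx (0.46). Between neonatal cortex and cerebellum 2 of the 67 were called, the BAF-associated zinc finger proteins Bcl11a and Bcl11b, both higher in cortex. They were at 2.09 ± 0.23 (adjusted p = 0.0293, limma) and 1.91 ± 0.23 (adjusted p = 0.0342, limma). This is 2.99% of genes, each by its brightest probe set, beside 0.197% of all tested probe sets called higher. Bcl11b is also 1 of the cortex markers used above to check the labels, so its call here is not a separate result. Between the duplications 0 of the 67 were called.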
